A study of Homo sapiens with 12 samples.

Results

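A group of 7 transcription factor genes of the epithelial-mesenchymal transition (EMT) was followed across 12 expression arrays: ZEB1, ZEB2, SNAI1, SNAI2, TWIST1, TWIST2 and TCF4. Every probe set annotated to one of these 7 genes was read, which gave 22 probe sets (4 for ZEB1, 5 for ZEB2, 1 each for SNAI1, SNAI2 and TWIST1, 2 for TWIST2 and 8 for TCF4) out of 40914 probe sets that name a single gene of the 19774 genes measured. The brightest probe set stood for its gene in the tests, and the others are described beside it. The arrays came from 3 established cell lines that carry methylated miR-200 loci, HUTU-80, MDST8 and NCI-H716, all labelled as colorectal cancer lines. HUTU-80 is widely described as derived from a duodenal adenocarcinoma.

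Cells of each line received lentivirus with the miR-200c141 cluster or with the miR-200ba429 cluster, were sorted for GFP after 48 hours, and gave RNA 7 days after transduction. In MDST8 and NCI-H716 a portion of the sorted miR-200ba429 cells was infected again with miR-200c141 virus 24 hours after sorting, and these cells are called "both clusters" here. Each line contributed 1 control array and 1 miR-200ba429 array. The miR-200c141 group had 4 arrays, 2 of which are HUTU-80, and both clusters were hybridised on 2 arrays. What the control cells received is not stated in the labels, nor is it stated that arrays represent separate cultures. The p-values below therefore measure the spread between these arrays, which may be partly technical. The titles of the 2 HUTU-80 miR200c141 arrays end in 1:3 and 1:5, with no meaning given, and they were averaged into 1 sample, leaving 11 samples. All changes within a line share its 1 control array.

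ZEB1 and ZEB2 are zinc finger proteins that bind E-box motifs in the promoters of epithelial genes such as CDH1 (E-cadherin) and repress them with corepressor complexes. SNAI1 (Snail) and SNAI2 (Slug) bind the same kind of motif, while TWIST1, TWIST2 and TCF4 are basic helix-loop-helix proteins, of which TCF4 (E2-2) is a dimer partner of the TWIST proteins. The miR-200 microRNAs are known to bind ZEB1 and ZEB2 messenger RNA at many sites, and ZEB1 in turn represses the miR-200 genes, a double-negative loop that is a classic example of EMT control in carcinoma cells.

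The 5 mature microRNAs of the clusters are printed because their seeds, bases 2 to 8 from the 5′ end and shown here in capitals, set which messenger RNAs they bind. The letters are from RefSeq on GRCh38.p14.
hsa-miR-200c-3p: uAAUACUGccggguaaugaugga
hsa-miR-200b-3p: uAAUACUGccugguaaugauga
hsa-miR-429: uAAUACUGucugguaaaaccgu
hsa-miR-141-3p: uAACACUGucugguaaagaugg
hsa-miR-200a-3p: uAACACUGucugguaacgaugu
The first 3 share the seed AAUACUG and the last 2 share AACACUG, and the seeds differ by U4C, with positions counted from the microRNA's 5′ end and the miR-200c base written first. Both clusters contain both seeds: miR-200c and miR-141 lie at chr12:6963742-6963764 and chr12:6964155-6964176, and miR-200b, miR-200a and miR-429 at chr1:1167160-1167181, chr1:1167916-1167937 and chr1:1169055-1169076, all on the plus strand.

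Values are log2 intensities, so a difference of 1 is a doubling of the signal. A probe set was called above background where it exceeded 5.43, the highest value of the 23 nonspecific control probe sets over all arrays. Below that value a change has no dependable size. The arrays were closely matched in overall level (medians 3.60 to 3.66), and across genes r was 0.978 to 0.995 within a line and 0.839 to 0.885 between lines. Endothelial markers were below background on all arrays (0 of 9). Of 9 leukocyte markers, LYZ alone was above background, and only in NCI-H716, where it read 7.97 in the control and 10.65 with both clusters. Among 14 intestinal epithelial markers, 1 was above background in the HUTU-80 control, 1 in the MDST8 control and 11 in the NCI-H716 control. Among 10 fibroblast markers these numbers were 7, 5 and 4, so by these lists HUTU-80 and MDST8 lacked most of the intestinal epithelial profile before any microRNA was added. The summed signal of the intestinal epithelial markers, as log2, was 8.23 in the HUTU-80 control and 10.59 to 11.20 with constructs, 10.10 and 10.69 to 11.86 in MDST8, and 12.85 and 13.79 to 14.45 in NCI-H716. Such a sum is governed by the brightest markers. The median marker read 3.64 in the HUTU-80 control and 3.44 to 3.79 with constructs, and 3.42 and 3.37 to 3.43 in MDST8. In NCI-H716 it read 7.09 in the control and 9.30 to 9.885 with constructs. The part of these markers in the results below was not tested.

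The 7 genes differed in the lines where they were above background. ZEB1 was well above background on all 12 arrays, ZEB2 on 3 MDST8 arrays, SNAI2 and TWIST1 on the 4 MDST8 arrays alone, and TCF4 on the 8 arrays of HUTU-80 and MDST8. SNAI1 and TWIST2 were below background on every array.

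**Figure D1:**
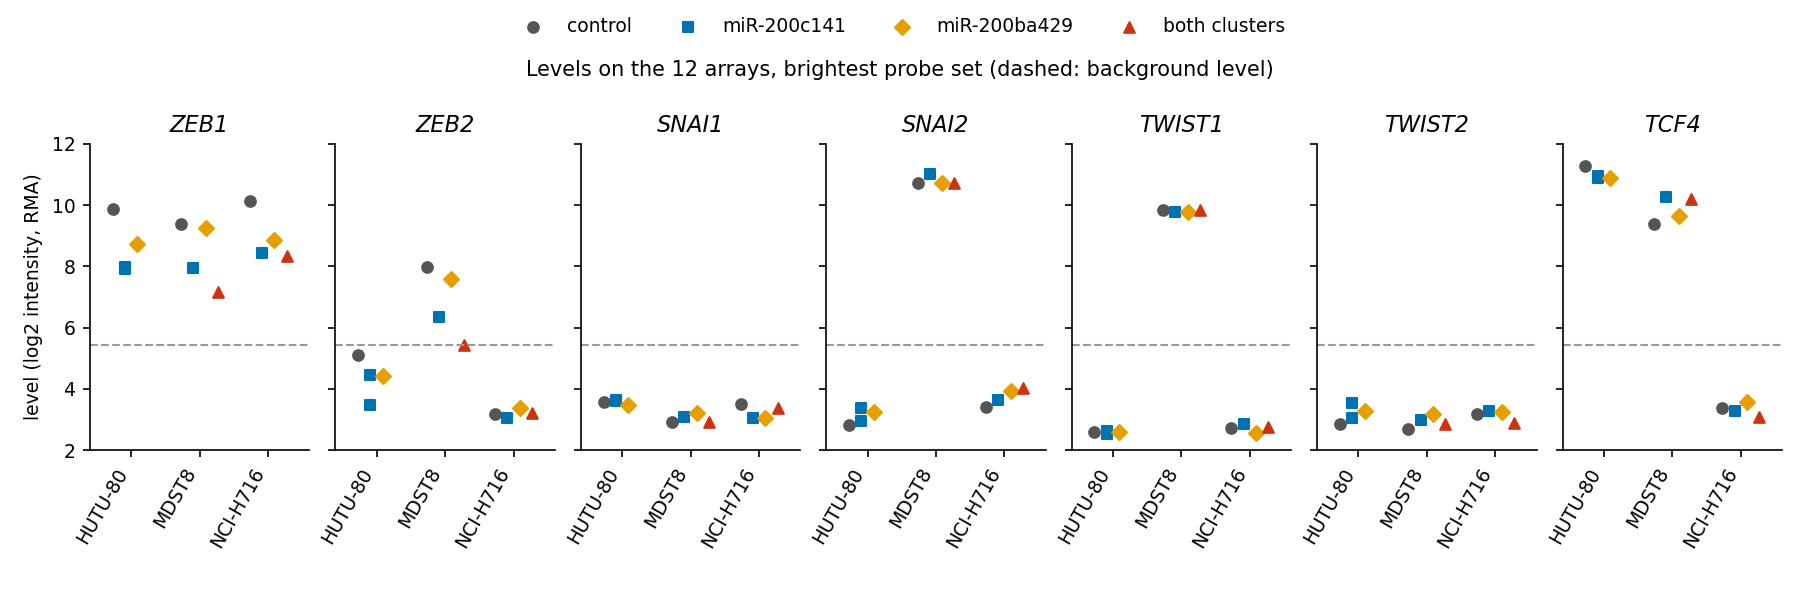
Levels of the 7 genes (log2 intensity, brightest probe set) on the 12 arrays, 1 point per array, by cell line and construct, with the background level of 5.43 dashed. ZEB1 is the 1 gene that is above the dashed line in all 3 lines and lower with each construct than in the control, whereas SNAI2 and TWIST1 stay level within MDST8.

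ZEB1 carried the clearest response to the microRNAs. In HUTU-80 the control read 9.87, the 2 miR200c141 arrays read 7.93 and 7.99, and the miR200ba429 array read 8.75. In MDST8 the control read 9.39, with 7.94 for miR200c141, 9.26 for miR200ba429 and 7.15 for both clusters. In NCI-H716 the corresponding values were 10.15, 8.43, 8.85 and 8.34. All 9 arrays with a construct were below the control of their own line, and no value with miR200c141 or both clusters reached the lowest control. These 9 differences share 3 control arrays, so they are not independent. The share of all genes with this pattern was not counted. In linear intensity, miR200c141 left 25.9% and 27.1% of the HUTU-80 control signal, 30.5% of the NCI-H716 signal and 36.6% of the MDST8 signal. The miR200ba429 cluster left 45.8% for HUTU-80 and 40.9% for NCI-H716 but 91.5% in MDST8, where ZEB1 stayed close to its control. In such bulk RNA, less transcript per cell and fewer cells with the transcript cannot be told apart.

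With both clusters ZEB1 fell by 2.11 ± 0.27 (SE) on the log2 scale against control, an adjusted p of 0.0022 (limma with cell line in the model, Benjamini-Hochberg over all genes). In that comparison 6.14% of the 19774 genes were called, 3.81% lower and 2.33% higher, and of the 7 factors ZEB1 was the 1 called. The estimate was lost as a call, at -2.06 with an adjusted p of 0.5149, when the model had no replicate block for the cell line. With miR200c141 alone the change was -1.69 ± 0.23 (adjusted p 0.1165, limma). With miR200ba429 alone it was -0.85 ± 0.23 (adjusted p 0.7891, limma). Neither single cluster passed, nor did any other gene: limma called 0 genes (0%) with miR200c141, where 1302 had an unadjusted p under 0.05, and 0 genes (0%) with miR200ba429, where 1214 did. The miR200c141 value passed without the MDST8 miR200ba429 array (adjusted p 0.0069, limma), without the MDST8 array with both clusters (0.0172) and without the NCI-H716 one (0.0185), with the same change. Leaving out the line MDST8 gave ZEB1 changes of -1.81 (adjusted p 4.71e-04, limma) for miR200c141 and -1.21 (adjusted p 0.0112, limma) for miR200ba429.

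All constructs taken as 1 group gave a ZEB1 change of -1.46 ± 0.33 (adjusted p 0.4147, limma), again with 0 genes called (0%) and 1851 at an unadjusted p under 0.05. Without the MDST8 miR200ba429 array it was -1.66 with an adjusted p of 0.0377 (limma). An exact permutation test over samples within lines, two-sided with 48 choices of the control, gave p = 0.0208 for ZEB1, the smallest this design allows. Adjusted over the 3 genes tested this way it was 0.0625. For ZEB2 that exact permutation test gave p = 0.1458 (adjusted 0.2188) and for TCF4 p = 0.7292.

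The clusters were also set against each other. ZEB1 was lower with miR200c141 than with miR200ba429 in each of the 3 lines, by -0.84 ± 0.23 in the fit (adjusted p 1.0000, limma), where 0 genes (0%) were called and 705 had an unadjusted p under 0.05. Both clusters against miR200ba429 gave -1.26 ± 0.27 with an adjusted p of 0.0453 (limma), among 1.68% of genes called. That call was lost in 16 of 22 alternative settings, which ran from -1.86 to -0.61, and without the line MDST8 the value was -0.61. Both clusters against miR200c141 gave -0.42 ± 0.27 (adjusted p 0.5713, limma), with 0.364% of genes called, and 0.04 without the MDST8 array with both clusters.

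The lines differed in how the 2 viruses combined on the log2 scale, as single values without replicates. In MDST8 the changes with each cluster alone added to -1.58 for ZEB1, and both clusters together gave -2.24. In NCI-H716 the single changes added to -3.00, and both together gave -1.81, little beyond the -1.71 of miR200c141 alone. No test was made of this combination. The test of a difference between lines in the construct effect took all constructs as 1 group, so it cannot address how the 2 viruses combined. It gave an adjusted p of 0.9998 for ZEB1 (limma, F over the interaction terms), with 1 gene in all called (0.00506%).

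The other ZEB1 probe sets gave lower values in the same comparisons where they could be read. The second brightest was above background on all 12 arrays and below its control on 8 of 9. Its controls read 7.78, 7.17 and 8.18 in HUTU-80, MDST8 and NCI-H716, and its both-cluster arrays 5.52 in MDST8 and 7.19 in NCI-H716. The exception was MDST8 with miR200ba429, at 7.22. With both clusters this probe set changed by -1.44 ± 0.29 (adjusted p 0.0151 over all probe sets, limma), against -2.11 for the brightest one. The remaining 2 were below background on every array, one of them lower than its control on 9 of 9 arrays and the other on 8.

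**Figure D2:**
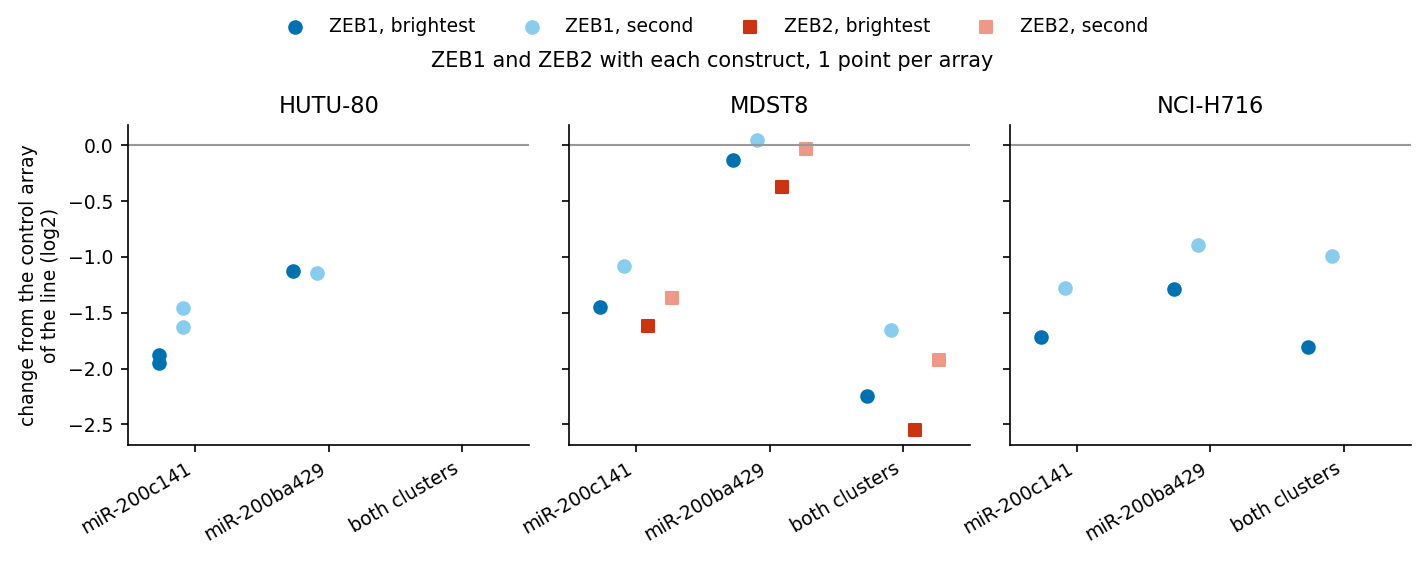
Change of ZEB1 (all lines) and ZEB2 (MDST8, the 1 line where it was above background) from the control array of the line, in log2 units, 1 point per array, for the brightest and the second brightest probe set. There is no array with both clusters in HUTU-80. In MDST8 the miR200ba429 points lie between -0.38 and 0.05, while those of miR200c141 and both clusters run from -1.08 to -2.55, the last to a level at background.

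ZEB1 levels lay close together in the 3 lines. Its fitted level differed by 0.11 between HUTU-80 and MDST8 (adjusted p 0.7615, limma), where 43.3% of genes were called, and by -0.40 between HUTU-80 and NCI-H716 (adjusted p 0.1848, limma), where 45.6% were called. MDST8 was lower than NCI-H716 by -0.51 ± 0.20 (adjusted p 0.0552, limma), where 51.7% were called. With the second probe set NCI-H716 was above both other lines: the fitted difference was -0.70 for HUTU-80 against NCI-H716 (adjusted p 0.0353, limma) and -0.89 for MDST8 against NCI-H716 (adjusted p 0.0041, limma).

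ZEB1-AS1, a noncoding gene on the opposite strand beside ZEB1, was read for its position. It read 7.42, 5.42 and 7.61 in the HUTU-80, MDST8 and NCI-H716 controls. With both clusters it read 6.27 in MDST8, so it did not fall with ZEB1 there. The MDST8 control lay just under background, so the size of that rise is not dependable. The other MDST8 arrays read 5.58 with miR200c141 and 5.05 with miR200ba429. Every construct array was below the control in HUTU-80 (-0.26, -0.26 and -0.36). The same held in NCI-H716, at -0.03 with miR200c141, -0.42 with miR200ba429 and -0.43 with both clusters.

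ZEB2, the paralogue of ZEB1, was measurable in MDST8 alone. Its brightest probe set read 7.97 in the MDST8 control, 6.35 with miR200c141, 7.60 with miR200ba429 and 5.42 with both clusters, the last just under background. In HUTU-80 it read 5.11 in the control, 3.48 and 4.46 with miR200c141 and 4.41 with miR200ba429. NCI-H716 stayed between 3.04 and 3.37. The order of constructs in MDST8 was the order seen for ZEB1 there: miR200ba429 left 77.0% of the control signal and miR200c141 32.5%. With both clusters the signal was at least 5.82-fold below the control, a bound because the lower value lay at background.

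Across the lines the ZEB2 changes did not pass. Both clusters gave -1.36 ± 0.45 (adjusted p 0.1049, limma), miR200c141 gave -0.97 ± 0.39 (adjusted p 0.7261, limma) and miR200ba429 gave -0.30 ± 0.39 (adjusted p 0.9162, limma). These fits include NCI-H716, where ZEB2 had no signal to lose. Without the NCI-H716 array with both clusters the first value was -2.31 (adjusted p 0.0078, limma), and without that line -2.52 (adjusted p 0.0088, limma). Each of these values rests on the 1 MDST8 array with both clusters, which is assumed to vary like the other groups, so they carry no replication of their own. Between lines ZEB2 was higher in MDST8 by at least 2.65-fold over HUTU-80 (adjusted p 1.64e-04, limma) and over NCI-H716 (adjusted p 2.61e-06, limma), from a measured MDST8 mean of 6.83 against 4.50 and 3.20 (3 of 4 MDST8 arrays above background).

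The ZEB2 probe sets disagreed in MDST8. The second brightest followed the first, with 6.99 in the control, 6.96 with miR200ba429, 5.62 with miR200c141 and 5.07 with both clusters. The third brightest had the opposite order, from 4.33 in the control to 4.55, 5.41 and 7.16 in the same order. Its value with both clusters was the 1 above background, at least 3.31-fold over the control, and the fitted change over the lines was 1.60 ± 0.47 (adjusted p 0.0690 over all probe sets, limma). The positions of these probes in the ZEB2 transcript were not used here. The remaining 2 probe sets stayed between 2.53 and 3.71 on all arrays.

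**Figure D3:**
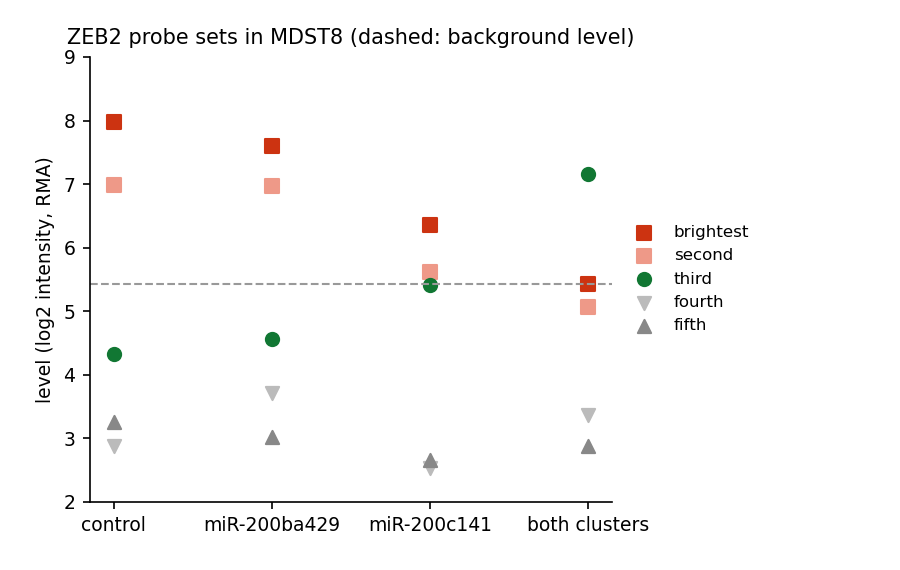
Levels of the 5 ZEB2 probe sets (log2 intensity) in MDST8, 1 array per construct, with background dashed at 5.43. From control to both clusters the brightest probe set descends from 7.97 to 5.42 and the second from 6.99 to 5.07, while the third climbs from 4.33 to 7.16.

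SNAI1, the founding Snail repressor, was below background on all 12 arrays, between 2.91 and 3.65. Its close relative SNAI2 was at background in HUTU-80 (2.81 to 3.36) and in NCI-H716 (3.41 to 4.02) and bright in MDST8. There it read 10.74 in the control, 11.01 with miR200c141, 10.72 with miR200ba429 and 10.73 with both clusters. MDST8 therefore exceeded the other lines at least 41.4-fold (adjusted p 1.02e-10 against HUTU-80 and 4.42e-11 against NCI-H716, limma). Within MDST8 no construct array differed from the control by more than 0.27 for SNAI2, whereas ZEB1 differed by up to -2.24 on the same arrays.

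TWIST1, a helix-loop-helix factor of mesoderm and neural crest, had the same line pattern. MDST8 read 9.84 in the control, 9.79 with miR200c141, 9.77 with miR200ba429 and 9.84 with both clusters. HUTU-80 lay between 2.53 and 2.64 and NCI-H716 between 2.55 and 2.85, so the difference was at least 20.8-fold (adjusted p 1.01e-10 and 2.79e-11, limma). The 4 MDST8 values spanned less than 0.1 log2 units. TWIST2 stayed below background with both of its probe sets, and its brightest one ranged from 2.69 to 3.53.

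TCF4, which encodes an E protein and is distinct from the Wnt effector TCF7L2 that is also called TCF4, was bright in HUTU-80 and MDST8 and at background in NCI-H716. The brightest probe set read 11.29 in the HUTU-80 control, 10.90 and 10.95 with miR200c141 and 10.89 with miR200ba429. In MDST8 it read 9.38 in the control, 10.28 with miR200c141, 9.65 with miR200ba429 and 10.21 with both clusters. In NCI-H716 it stayed between 3.09 and 3.58. The constructs thus lay below the control array in HUTU-80 and above it in MDST8. Neither line has a replicate control array, so the lack of overlap between control and construct values carries little weight. The share of all genes with such opposite directions was not counted.

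HUTU-80 exceeded MDST8 by 1.17 ± 0.23 (adjusted p 0.0015, limma). Over NCI-H716, HUTU-80 was at least 48.7-fold higher (adjusted p 3.07e-10, limma) and MDST8 at least 21.9-fold higher (adjusted p 3.73e-10, limma). All 8 TCF4 probe sets were lower on each of the 3 HUTU-80 arrays with a construct, with medians of -0.31, -0.31 and -0.36. In MDST8 all 8 were higher, with medians of 0.99 for miR200c141, 0.36 for miR200ba429 and 0.84 for both clusters. These probe sets share the array and the RNA, so their number adds no replication. The difference between lines had an unadjusted p of 0.0696 and an adjusted p of 0.9998 for TCF4 (limma).

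**Figure D4:**
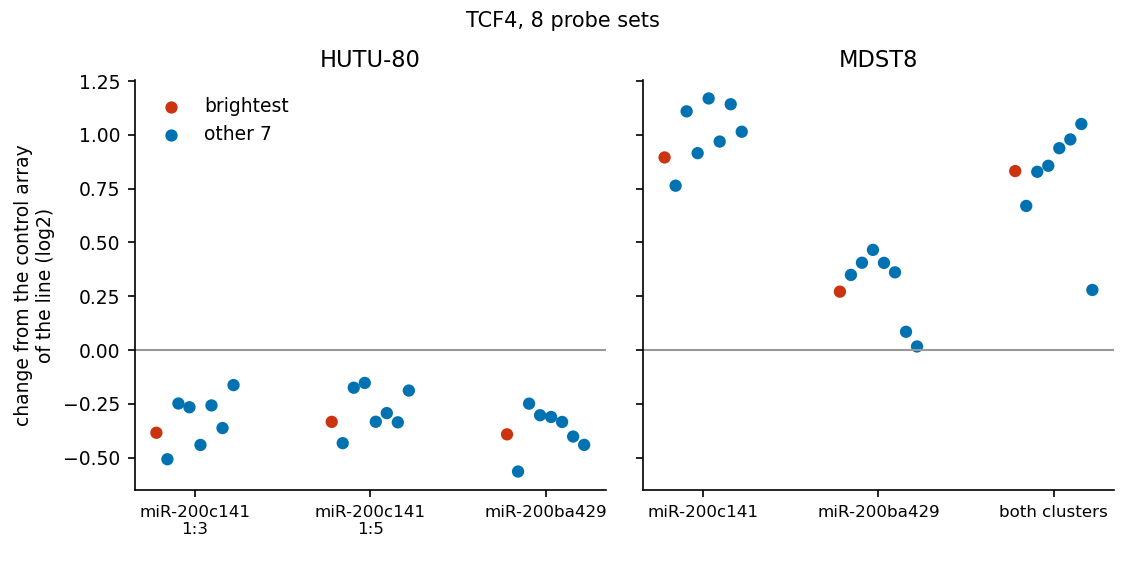
Change of the 8 TCF4 probe sets from the control array of the line (log2 units) in HUTU-80 and MDST8, 1 point per probe set in each array, with the brightest in red. All points lie below 0 in HUTU-80 (medians -0.31 to -0.36) and above 0 in MDST8 (medians 0.36 to 0.99).

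Genes that ZEB or SNAIL proteins are known to repress were read next, from a list of 32, of which 30 were measured. With both clusters 4 of the 30 rose and 0 fell, where 2.33% of all genes were called higher. The fitted change was positive for 29, with a median of 1.21 against 0.0004 over all genes. For 17 of the 30 the MDST8 and NCI-H716 controls were both below background, so this median has no dependable size. The 4 were PKP2 (plakophilin 2, a desmosome protein), KRT18 (a keratin of simple epithelia), PATJ (a scaffold of the Crumbs polarity complex) and LLGL2 (a basolateral polarity protein). Median changes were 1.01 with miR200c141 and 0.42 with miR200ba429, where 0 of the 30 passed.

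PATJ read 3.49 in the MDST8 control, 6.37 with miR200c141, 3.40 with miR200ba429 and 7.41 with both clusters. In NCI-H716 it read 5.04, 6.92, 6.98 and 7.36 in that order, and in HUTU-80 6.46 in the control, 7.53 and 7.25. The control was below background in MDST8 and NCI-H716, and PATJ with both clusters was at least 3.88-fold above those controls (adjusted p 0.0223 in the fit over lines, limma). PKP2 was below background in all 3 controls (3.11 to 5.14) and read 7.94 in MDST8 and 6.48 in NCI-H716 with both clusters, at least 3.43-fold higher (adjusted p 0.0060, limma). KRT18 rose by 1.48 ± 0.23 (adjusted p 0.0066, limma), and LLGL2 rose by 1.42 ± 0.31 (adjusted p 0.0233, limma). LLGL2 was below background in MDST8 with and without both clusters, and in NCI-H716 it read 6.55 in the control and 8.14 with both clusters.

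The list is also described by line, without a test. In NCI-H716 with both clusters 30 of 30 genes were above their control, against 48.2% of all genes. The 24 that were above background on either array, 12 of them in the control, had a median of 1.85. In MDST8 with both clusters 19 of 30 were above their control, against 50.7% of all genes. Just 5 of the 30 were above background on either of those arrays, 2 of them in the control. These 5 were all higher, each by more than 1, with a median of 2.80. A gene that passed this cut through the construct array alone could only be higher. Its direction is therefore no result, and such medians have no dependable size in any of the lines. MDST8 with miR200ba429 had 15 of 30 above, against 49.1% of all genes, and 2 above background. In HUTU-80, 25 of 30 were above the control with miR200c141, against 51.5% of all genes, and 23 of 30 with miR200ba429, against 51.1%. Just 11 and 10 of the 30 were above background on either array there, but only 5 in the control. All of these were higher, which was fixed in advance for those that passed with the construct alone. CDH1, the best known ZEB target, read 4.01 in the NCI-H716 control and 8.52, 6.64 and 9.03 with miR200c141, miR200ba429 and both clusters. In HUTU-80 CDH1 read 3.20 in the control, 5.93 with miR200c141 and 5.30 with miR200ba429. In MDST8 it stayed at background, 3.14 in the control and 3.23 with both clusters. EPCAM, an epithelial adhesion molecule, read 3.41 on that array against 3.52 in its control, while NCI-H716 gave 12.38 against 9.29. Of the 14 intestinal epithelial markers, which include CDH1, EPCAM and KRT18, 13 were above background in NCI-H716 with both clusters and 2 in MDST8.

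**Figure D5:**
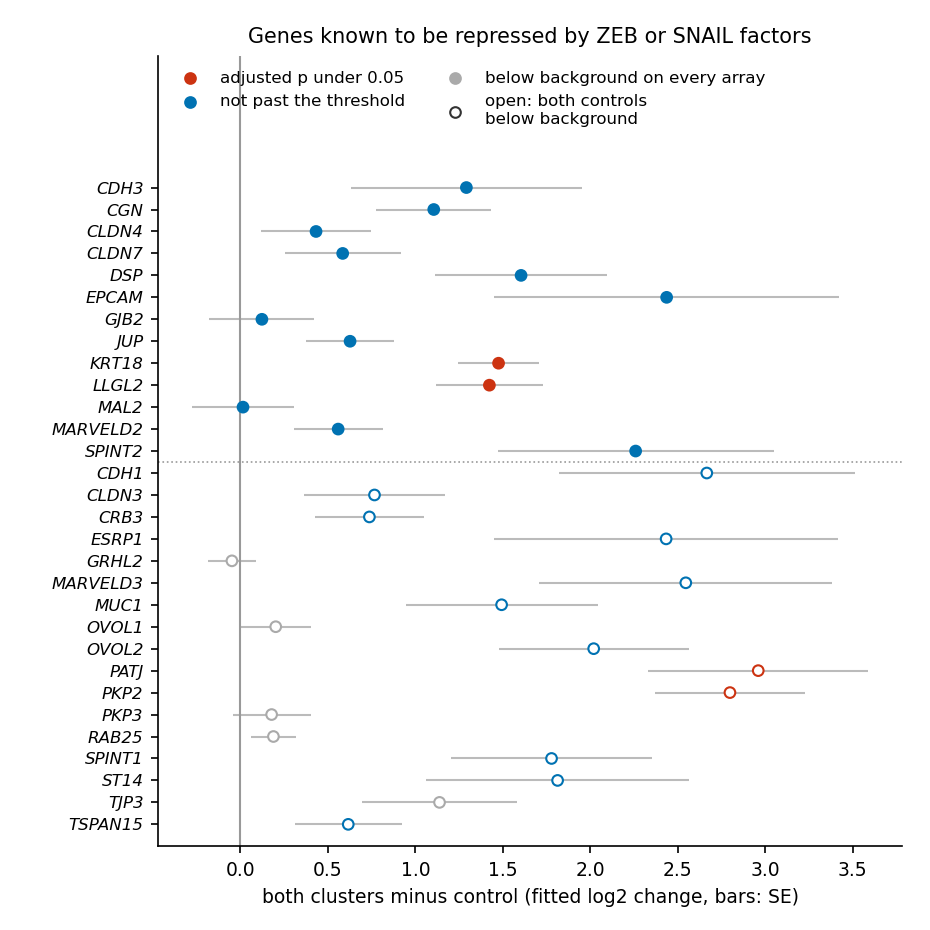
Fitted change with both clusters against control (log2 units, bars are SE) for the 30 measured genes known to be repressed by ZEB or SNAIL factors, in alphabetical order within 2 blocks. Solid points (13 genes above the dotted line) have a control above background in MDST8 or NCI-H716, and open points (17 genes) have neither, so their position is no measured size; of the 4 genes past the threshold, in red, KRT18 (1.48) and LLGL2 (1.42) are solid and PATJ and PKP2 open, and genes below background on all arrays are grey.

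ZEB and SNAIL proteins bind E-boxes of the form CACCTG, whose reverse complement is CAGGTG, so searching both words covers both strands. In RefSeq promoter windows on GRCh38.p14, from 250 bases before to 50 after a start, 24.1% of 27305 genes held at least 1 such word. Of the listed genes 16 had a window, and 12 of those (75%) held one. The list was chosen for repression by proteins that bind this word, so that share is no independent result. With both clusters the median fitted change was 0.77 for the 11 measured genes with the word and 0.59 for the 4 without. PATJ was the only gene past the threshold that had a window. Windows with 3 or more occurred for 3 of the 16, against 0.762% of all genes. PATJ, which rose with both clusters, and CRB3, a partner of PATJ in the Crumbs complex, are printed with the words in capitals.
PATJ: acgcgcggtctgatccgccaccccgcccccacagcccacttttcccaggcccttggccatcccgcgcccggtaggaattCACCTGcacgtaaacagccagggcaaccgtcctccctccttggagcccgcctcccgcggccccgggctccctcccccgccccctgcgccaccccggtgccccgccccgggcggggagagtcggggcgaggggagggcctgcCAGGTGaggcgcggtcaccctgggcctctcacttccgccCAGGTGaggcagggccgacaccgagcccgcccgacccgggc
CRB3: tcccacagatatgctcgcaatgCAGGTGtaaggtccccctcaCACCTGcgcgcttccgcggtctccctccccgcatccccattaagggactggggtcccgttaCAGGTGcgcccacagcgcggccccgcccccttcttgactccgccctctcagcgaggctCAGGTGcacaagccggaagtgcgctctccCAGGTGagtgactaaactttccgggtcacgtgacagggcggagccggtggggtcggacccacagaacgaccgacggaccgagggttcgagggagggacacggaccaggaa

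The PATJ window is chr1:61742230-61742529 on the plus strand with 3 words, and the CRB3 window is chr19:6464021-6464320 on the plus strand with 5. CRB3 itself read 5.14 in the NCI-H716 control and 6.57, 6.03 and 6.36 with miR200c141, miR200ba429 and both clusters, and was below background on all arrays of the other lines. It did not pass with both clusters (adjusted p 0.1962, limma). A match shows the letters alone and not binding. Of the 7 factors, 4 had a window (ZEB1, ZEB2, TWIST2 and TCF4), and ZEB1 alone held the word. That is 25% of the 4, close to the 24.1% of all genes. By window it was 2 of 19 for these genes (10.5%), against 20.6% of all windows.

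The corepressors and cofactors of the ZEB proteins were above background in all 20 cases. With both clusters 3 of the 20 fell and 0 rose, with a median of -0.23, where 3.81% of all genes were called lower. YAP1, a Hippo pathway coactivator reported to join ZEB1 at activated genes, read 10.37 with both clusters against 11.28 in the MDST8 control, and 7.78 against 8.46 in NCI-H716, a change of -0.84 ± 0.16 (adjusted p 0.0135, limma). KDM1A, a histone demethylase recruited by SNAIL and ZEB proteins, changed by -0.51 ± 0.11 (adjusted p 0.0246, limma). SIRT1, a deacetylase, read 7.90 and 6.69 in MDST8 and 8.15 and 7.69 in NCI-H716, a change of -0.92 ± 0.21 (adjusted p 0.0295, limma). With either cluster alone 0 of the 20 passed. In the direct comparison of both clusters with miR200ba429, SIRT1 (adjusted p 0.0436, limma) and YAP1 (adjusted p 0.0241, limma) were lower. CTBP1 and CTBP2, the classical ZEB corepressors, had values of 0.04 ± 0.10 and -0.16 ± 0.07 and did not pass.

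Regulators of SNAIL and TWIST protein stability or transcription gave 0 calls among 18 measured with both clusters, with a median of 0.08. Of all genes 6.14% were called there, a share at which lists this short can hold 0 calls. The largest fitted values were those of STAT3, which activates TWIST1 transcription, at 0.76 ± 0.22 (adjusted p 0.0686, limma), and of HMGA2, which induces SNAI1 and TWIST1, at 0.74 ± 0.26 (adjusted p 0.1203, limma). The helix-loop-helix partners and ID proteins also gave 0 calls among 10, against the same 6.14% of all genes. That list counts TCF4 and TWIST2 themselves. TCF12 and TCF3, the E proteins beside TCF4, had values of -0.52 ± 0.15 (adjusted p 0.0641, limma) and -0.46 ± 0.14 (adjusted p 0.0732, limma). ID1, an inhibitor of E proteins, ranged between 8.23 and 11.71 over samples with no shared direction.

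Other EMT transcription factors gave 0 calls among 13 measured genes with both clusters, against 6.14% of all genes, and 7 of the 13 were above background. PRRX1, a homeobox inducer of EMT, read 9.94 in the MDST8 control, 6.88 with miR200c141, 8.29 with miR200ba429 and 6.04 with both clusters. In NCI-H716 the same order gave 8.55, 8.47, 8.54 and 7.64, and HUTU-80 was at background. Its fitted change with both clusters was -2.03 ± 0.62 (adjusted p 0.0804, limma). SOX9, a transcription factor of progenitor cells, had -0.84 ± 0.28 (adjusted p 0.1055, limma), with 7.29 in the control and 5.62 with both clusters in NCI-H716, and 10.60 and 10.35 in MDST8.

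Of 22 mesenchymal genes that EMT factors are known to raise, 2 fell with both clusters, against the 3.81% called lower among all genes, and the median was -0.16. LOX, a collagen crosslinking enzyme that is also a known miR-200 target, read 9.05 and 6.49 in MDST8 and 7.15 and 3.81 in NCI-H716, a change of -2.77 ± 0.39 (adjusted p 0.0037, limma). VIM, the intermediate filament vimentin, read 13.19 in the control and 12.95 with both clusters in MDST8, and 11.95 and 10.69 in NCI-H716, a change of -0.74 ± 0.18 (adjusted p 0.0335, limma). For comparison, of 33 other known miR-200 targets 11 fell with both clusters, against the same 3.81% of all genes, and the median was -0.67. PPM1F, a phosphatase, fell by 2.23 ± 0.21 (adjusted p 5.47e-04, limma), and CFL2, an actin-binding protein, fell by 2.16 ± 0.22 (adjusted p 7.90e-04, limma). These are of the size of the ZEB1 change.

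Genes whose pattern was most like that of ZEB1 were ranked by Pearson correlation after centring each gene within its line, over 11 samples and 2949 genes. The 5 most alike were ANK2 (r = 0.93), ZNF25, OSTM1 and PPM1F (each 0.92) and SLC7A2 (0.91). The 5 most opposite were VAMP8 (-0.98), MCOLN3 (-0.97), GCH1 (-0.97), LPP-AS2 (-0.96) and TASP1 (-0.95). VAMP8, a SNARE protein of vesicle fusion, read 2.95 in the MDST8 control, 8.29 with miR200c141, 3.14 with miR200ba429 and 9.70 with both clusters, and 5.01, 9.70, 8.76 and 10.02 in NCI-H716. GCH1, an enzyme of tetrahydrobiopterin synthesis, read 7.96, 8.83, 8.32 and 9.48 in MDST8. These correlations describe 11 samples that share controls and lines.

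For ZEB2 the same ranking gave MAP3K5 (0.95), SOBP, RTTN and MMP1 (each 0.94) and SOX11 (0.93) as most alike, and MAP7, SFN, EFNA5, VHRT and KRTAP3-1 as most opposite, from -0.98 to -0.97. Over the 7 samples of HUTU-80 and MDST8 and 1985 genes, MMP1 led the alike genes (0.99) and SFN the opposite ones (-0.99). Both rankings include ZEB2 values below background, as only 3 arrays, all MDST8, lay above it. MMP1, a collagenase, read 11.75 in the MDST8 control, 9.09 with miR200c141, 10.58 with miR200ba429 and 6.80 with both clusters. ZEB1 and ZEB2 themselves correlated at 0.82 over the 11 samples.

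The 3′ to 5′ signal difference of the ACTB control probe sets, a sign of RNA integrity, was 2.02 on the MDST8 array with both clusters against at most 1.54 on the other MDST8 arrays. In NCI-H716 it was 2.63 with both clusters against at most 2.40, and the HUTU-80 arrays ran from 2.10 to 2.39. For GAPDH the difference with both clusters was 0.38 in MDST8, against at most 0.32 on its other arrays. In NCI-H716 the GAPDH value was 0.35 against at most 0.325, and HUTU-80 ran from 0.27 to 0.38. The called ZEB1 change rests on the 2 arrays with both clusters, and the part of RNA integrity in it was not tested.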

How the data were processed

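Biotin-labelled total RNA was hybridised to Affymetrix U133 Plus arrays with perfect-match probes on a GeneTitan instrument, per the labels. The authors deposited log2 intensities, 1 per probe set, made with RMA per the submitters' processing notes. RMA normalizes by quantiles, which can hide a shift shared by most genes, and no label states its settings. Values were taken as they stand, with groups from the sample titles and 0 arrays unassigned. SW620, named in the protocol, was not analysed here. The number of arrays limits the precision.

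Of 54715 probe sets, 40914 name a single gene. Gene IDs were matched to a RefSeq table (40858 probe sets matched), and the probe set with the highest mean stood for each of 19774 genes. Genes were tested with limma 3.58.1 in R 4.3.3 (two-sided, a variance trend, Benjamini-Hochberg over all genes, threshold 0.05). Cell line was a fixed term, which pairs the samples of a line and left 5 residual degrees of freedom (7 for any construct). Tables and sequences were handled in Python 3.11.15. The scripts were tested on simulated data.

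The 7 genes, the gene lists and the rule for named genes were chosen with earlier results of these data known. That rule names all 7 genes, up to 5 listed genes of smallest p that passed against control or else the 2 of largest change, and the 5 most and 5 least correlated genes. CRB3, CTBP1, CTBP2 and ZEB1-AS1 were added after their values were seen. Alternatives were the mean of probe sets, separate HUTU-80 arrays, no line term, no variance trend, compared groups alone, detected genes alone, a further quantile step, a background at the 95th percentile of the nonspecific probe sets (3.78), and leaving out each sample or line. The second brightest probe set was added after seeing the data. Where a level lay under background in a whole group, a bound is given: the bright mean against the lowest signal above background.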

Additional observations from a re-analysis of the deposited data

Results flagged for a closer look

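TCF4 differed in direction between lines. Over the arrays with a construct its mean change from control was -0.37 in HUTU-80 and 0.67 in MDST8, every such array of the first line lying below its control and every one of the second above. The test of the interaction did not pass (adjusted p 0.9998, limma), and each line has 1 control array.

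Signal also appeared in probe sets that were not used for the tests. The third brightest ZEB2 probe set read 7.16 in MDST8 with both clusters, above background, where the control was below it. The dimmest TCF4 probe set read 6.17 in MDST8 with miR200c141, where the control, at 5.15, was below background. No group held 4 or more samples after averaging, so no search for single outlying samples within groups was made.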

How the results depend on the processing

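The call of ZEB1 with both clusters held in 21 of 22 alternatives. Without the replicate block for the line it was -2.06 (adjusted p 0.5149, limma), and the number of genes called with both clusters went from 1214 to 0. For both clusters against miR200c141 and against miR200ba429 that block removal also gave 0 calls, and ZEB1 in the latter was -1.21. The mean of all probe sets gave 662, 14 and 120 calls for both clusters against control, miR200c141 and miR200ba429, and 3 for the difference between lines. No variance trend gave 679, 0 and 96, and the compared groups alone gave 19, 1 and 4, with fewer samples behind each variance. Separate HUTU-80 arrays gave 164 for both clusters against miR200c141 and 3 for miR200c141 against control, where the compared groups alone gave 4. ZEB1 with miR200c141 then passed, at -1.70 (adjusted p 0.0226, limma) with separate arrays and -1.69 (adjusted p 0.0043, limma) with the compared groups alone.

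ZEB1 for both clusters against miR200ba429 was no longer called with the mean of probe sets (-0.65), no variance trend (-1.26), the compared groups alone (-1.32), a further quantile step (-1.24) or the second brightest probe set (-0.78). The direction of ZEB2 turned, without a call, with the mean of probe sets for miR200ba429 against control (0.079) and for both clusters against miR200c141 (0.094). The third brightest ZEB2 probe set had a difference of 2.83 in MDST8 with both clusters, of which only a rise of at least 3.31-fold is measured, its control being below background. The cause was not tested.

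Leaving out an array or line with both clusters leaves 1 such array, assumed to vary like the other groups. Leaving out each sample or line in turn gave ranges of called genes of 0 to 8 for any construct, 0 to 22 for miR200c141, 0 to 6 for miR200ba429 and 362 (without the line HUTU-80) to 1676 (without the NCI-H716 array with both clusters) for both clusters against control. For both clusters they were 0 to 610 against miR200c141 and 65 to 1126 against miR200ba429. The ZEB1 ranges were -1.66 to -1.32 for any construct, -1.83 to -1.57 for miR200c141, -1.21 to -0.57 for miR200ba429, -2.56 to -1.65 for both clusters against control, -0.87 to 0.039 against miR200c141 and -1.86 to -0.61 against miR200ba429. ZEB2 ran from -0.75 to 0.033 (without the MDST8 control) for miR200ba429, and from -1.34 to 0.56 for both clusters against miR200c141, at 0.56 without the MDST8 both-clusters array and 0.35 without MDST8. The ZEB1 difference of HUTU-80 and MDST8 ran from -0.018 to 0.41, at -0.018 without the HUTU-80 control, -0.017 without the MDST8 control and -0.0071 without either array with both clusters. Over all results 602 alternatives were labelled the same, 36 stronger, 51 weaker, 9 moved and 11 reversed. For a fit, the same meant equal direction and side of the threshold. For a count of genes it meant a similar number. For another probe set within a line it meant a change within the gene's residual spread, whatever its sign. Below the background level of 5.43 no change can be sized, which covers SNAI1, TWIST2 and, outside MDST8, ZEB2, SNAI2 and TWIST1.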
